A study of Mus musculus with 10 samples.

Results

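The genes described here encode 34 histone lysine methyltransferases and related SET domain proteins of the mouse. They were chosen by name, and each was found by its Ensembl identifier among the 40620 genes of the deposited tables. The members were grouped by a histone residue linked to each, which need not be its main substrate. Under lysine 4 of histone H3 (H3K4) 11 were placed, 8 under H3K9, 6 under H3K36 and 1 under H3K79. Lysine 20 of histone H4 (H4K20) had 4, and 4 other SET domain proteins had no agreed histone site. The rule that defines them uses no expression value, although they were proposed with earlier results of these data known. A filter on low counts left 20808 genes to test, of which 33 were members. Prdm6, which had 0 counts in every library, was the member not tested.

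The RNA came from MC3T3-E1 cells, a line of mouse calvarial pre-osteoblasts of which the study used a single subclone, and was sequenced as 51 bp paired reads. Subconfluent and confluent cells were kept in growth medium (αMEM with serum). Cells of the other 3 stages had then received differentiation medium, with β-glycerophosphate at 10 mM and ascorbic acid at 50 µg/ml, for 24 h, 14 d or 21 d. Each of the 5 stages had 2 replicates, A and B, and the labels do not say whether these were separate cultures, so the p-values measure the spread between these samples only.

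Lysine methyltransferases move methyl groups from S-adenosylmethionine to the side chains of histone lysines. Among the members all but Dot1l carry a SET domain or the related PR domain. Methylation of H3K4, H3K36 and H3K79 is known from active promoters and transcribed gene bodies. Methylation of H3K9 and the higher states of H4K20 are known from condensed chromatin, and a single methyl group on H4K20 is set by Kmt5a in dividing cells. According to the paper, earlier work found that histone modifications change as cells enter mesenchymal lineages. For osteoblast differentiation it cites a decrease of trimethylated H3K27 and no more than modest changes of trimethylated H3K4 at promoters. In its own mapping of histone marks in these cells, peak numbers stayed relatively unchanged. There, di- and trimethylated H3K4 lay nearer to transcription starts as the cells differentiated.

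Between 44736156 and 162939333 counts fell on genes per library. The subconfluent, confluent and 24 h libraries carried one pair of index sequences and the 14 d and 21 d libraries another. Early or late stage and index pair therefore cannot be told apart. Some lane numbers recur in both sets, but the same index also recurs under the same lane number. A shared lane number therefore does not show a shared lane. Of 9 osteoblast markers 7 were higher and 0 lower at 21 d than in subconfluent cells, against 27.3% and 23.5% of all genes. Mean RPKM (reads scaled to gene length and library size) of Bglap (osteocalcin) was 2.5 in subconfluent cells and 1040 at 21 d. That of Ibsp went from 15.9 to 2540, of Col1a1 from 5550 to 5090 and of Col1a2 from 3510 to 3030. Between 14 d and 21 d, 2 markers were higher and 4 lower, against 3.77% and 5.95% of all genes. The 6 blood markers summed to between 4.81 and 6.41 RPKM over all samples, with Ptprc and Hbb-bs at 0 counts in every sample, and 0 of them passed the test at 21 d against subconfluent cells. The 6 muscle markers summed to 43.1 and 44.0 RPKM in subconfluent cells and to 14.5 and 14.6 at 21 d, nearly all of it from Acta1, which encodes skeletal muscle actin. Of the muscle markers Myod1 had 0 counts in every sample, and 1 was called lower at 21 d, by more than 2-fold. The 4 adipocyte markers together stayed at or below 0.0474 RPKM. The part of any of these lists in the results was not tested. In RNA from whole cultures, fewer cells of a type and less RNA per cell cannot be told apart.

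Among members that passed the test, those that fell most between subconfluent cells and 21 d were the H3K9 enzymes Suv39h1 and Suv39h2, the H3K36 enzyme Nsd2 and the SET domain protein Smyd5, by 1.84, 1.73, 1.53 and 1.03 on the log2 scale. Setmar and Kmt2c rose most, by 1.75 and 1.28. In this comparison 16 of 33 members had an adjusted p under 0.05 (edgeR's quasi-likelihood test, Benjamini-Hochberg adjustment over all genes), 8 higher and 8 lower. Over all genes tested, 50.7% passed the same threshold, 27.3% higher and 23.5% lower. A change of more than 2-fold was also seen in 6 of the 16, in which 2 were higher and 4 lower, against 27.6% of all genes, 16.3% higher and 11.3% lower. The members' median log2 fold change was -0.09 and that of all genes 0.04. Scaled by library size alone, where the median of all genes lay at -0.12, 4 members were higher and 10 lower, against 22.6% and 27.6% of all genes.

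**Figure D1:**
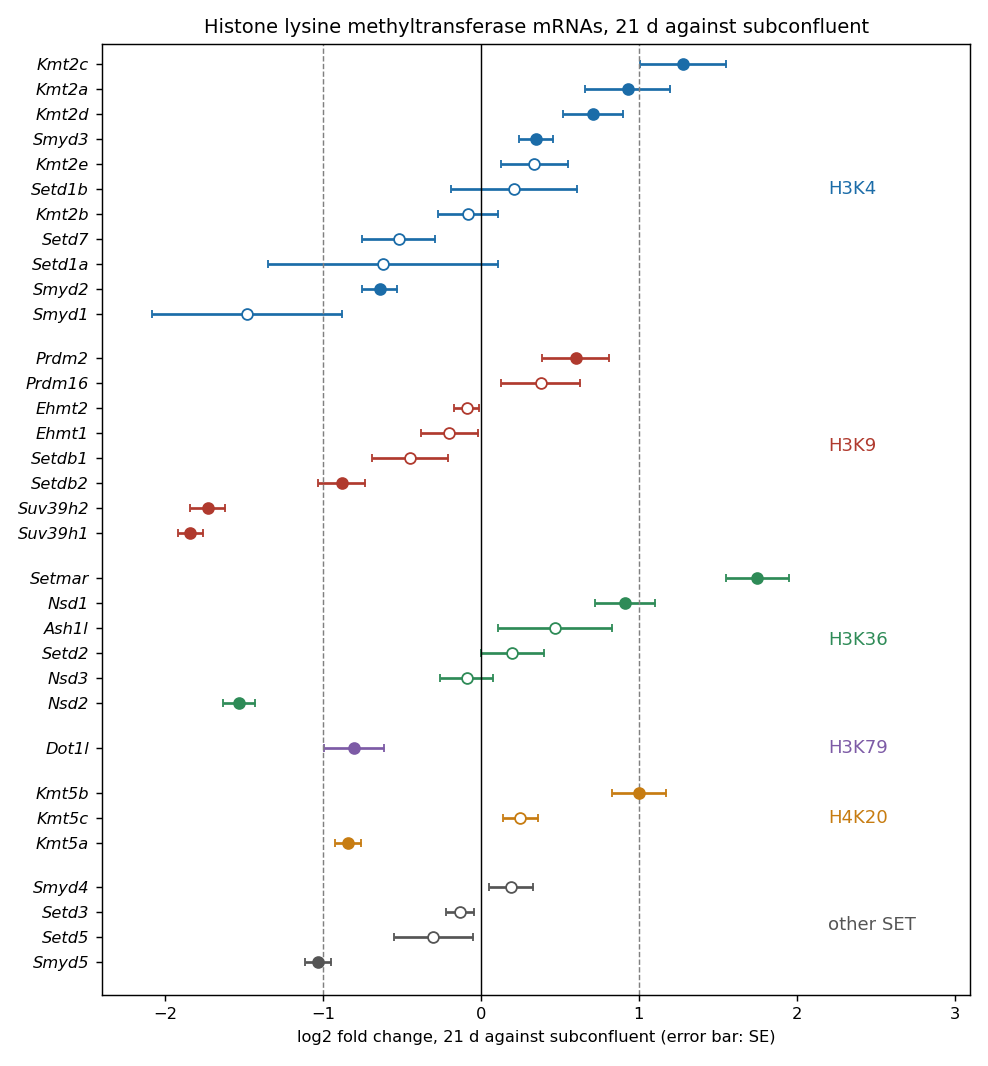
Log2 fold change between 21 d and subconfluent cells (x axis) for each of the 33 tested members, grouped by residue. Points are fitted values with their SE, filled where the adjusted p was under 0.05, and dashed lines mark 2-fold. Suv39h1 (-1.84), Suv39h2 (-1.73) and Nsd2 (-1.53) lie farthest left among filled points and Setmar (1.75) and Kmt2c (1.28) farthest right. Each residue group with more than 1 member has points on both sides of 0.

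An F test over the 5 stages gave an adjusted p under 0.05 for 14 of 33 members, against 48.9% of all genes. The count changed with the 24 h libraries, in which the replicates differed far more than at any other stage, and so did the share of all genes. Without 24 h replicate A, the F test called 23 members against 63.4% of all genes, and 21 d against subconfluent cells also called 23 members, 10 higher and 13 lower, against 61.9% of all genes, 32.2% higher and 29.7% lower. Without 24 h replicate B the F test called 30 members against 72.9% of all genes, and the 21 d comparison 24 against 61.9%. No 24 h sample enters the fitted fold changes of 21 d against subconfluent cells. They therefore could hardly move without 24 h replicate A, and their steadiness is no test of them. The 7 members added in the 21 d comparison were Kmt2e (0.33 on the log2 scale) and Ash1l (0.46), which were higher, and Setd1a (-0.62), Setd7 (-0.52), Setdb1 (-0.45), Ehmt1 (-0.20) and Setd5 (-0.31), which were lower.

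**Figure D2:**
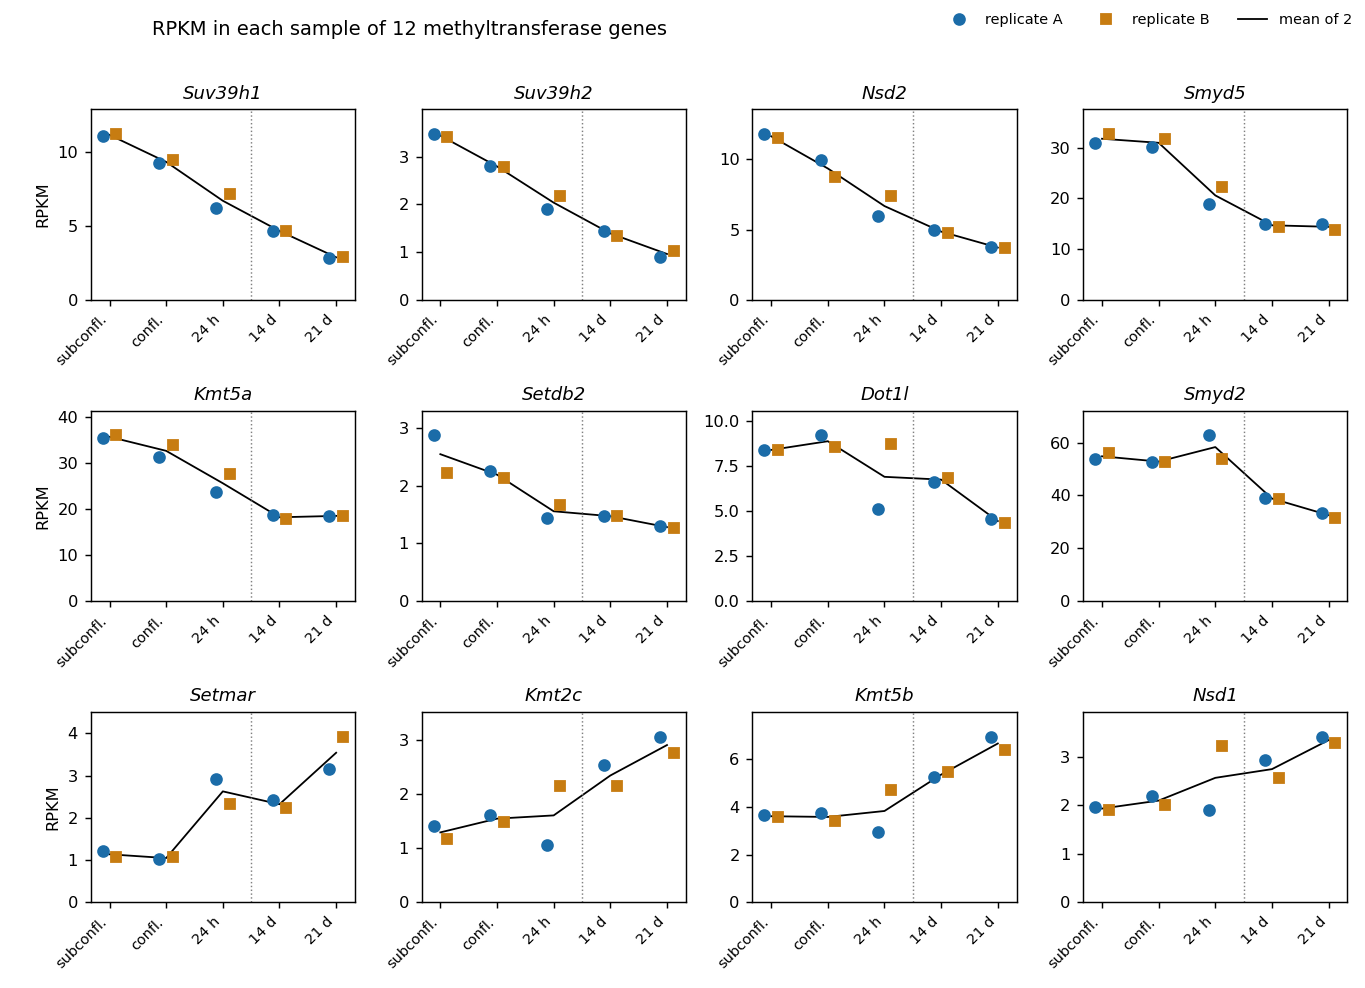
RPKM (y axis, from 0, a separate scale for each gene) in each of the 10 samples by stage (x axis) for 12 members called in 21 d against subconfluent cells. Circles are replicate A, squares replicate B and lines join the means, and a dotted line separates the libraries with different index pairs. Suv39h1, Suv39h2 and Nsd2 are lower at each later stage, whereas Kmt5b and Kmt2c are highest at 21 d, and the replicates of Dot1l, Nsd1, Kmt2c and Kmt5b lie far apart at 24 h.

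Promoters are shown for 3 members that fell and 1 that rose, to give the sequence just upstream of their transcription starts. Each is the 250 bases before a RefSeq start site on GRCm38.p6, written 5′ to 3′ on the strand of the gene. RefSeq windows were found for 24 of the 34 members. The Suv39h1 window is chrX:8074761-8075010 (minus strand), that of Kmt5a chr5:124439680-124439929 (plus), that of Smyd5 chr6:85431726-85431975 (plus) and that of Setmar chr6:108064795-108065044 (plus).
Suv39h1: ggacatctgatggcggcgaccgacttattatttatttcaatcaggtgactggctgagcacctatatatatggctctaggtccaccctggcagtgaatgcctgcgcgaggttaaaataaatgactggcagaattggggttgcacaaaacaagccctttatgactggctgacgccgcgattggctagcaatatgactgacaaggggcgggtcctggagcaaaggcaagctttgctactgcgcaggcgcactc
Kmt5a: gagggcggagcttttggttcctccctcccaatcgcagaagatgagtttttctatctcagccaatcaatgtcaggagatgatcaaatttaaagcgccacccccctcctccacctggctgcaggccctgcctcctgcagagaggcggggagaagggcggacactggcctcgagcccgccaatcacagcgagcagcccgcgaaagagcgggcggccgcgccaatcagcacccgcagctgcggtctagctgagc
Smyd5: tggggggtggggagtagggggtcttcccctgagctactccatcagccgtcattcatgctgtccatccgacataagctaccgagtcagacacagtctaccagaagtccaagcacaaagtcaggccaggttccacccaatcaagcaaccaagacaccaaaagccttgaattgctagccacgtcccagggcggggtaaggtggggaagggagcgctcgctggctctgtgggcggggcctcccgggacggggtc
Setmar: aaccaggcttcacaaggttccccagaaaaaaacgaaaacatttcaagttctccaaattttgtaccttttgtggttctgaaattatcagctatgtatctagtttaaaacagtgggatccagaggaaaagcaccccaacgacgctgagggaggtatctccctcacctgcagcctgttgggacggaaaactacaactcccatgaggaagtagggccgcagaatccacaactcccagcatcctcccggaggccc
All 4 are in lower case throughout because neither of the motifs searched on both strands was in them. These were TTTNNCGC, an E2F-like motif known from genes of DNA replication, and TTTGAA, a core known from genes of mitosis, and a match of one cannot overlap a match of the other. The first was in 4.28% of all 32851 windows and the second in 16.0%. Among the 30 windows of members the first was in 2, of Kmt5c and of a downstream start of Suv39h1, and the second in 1, of Smyd1. The downstream Suv39h1 window (chrX:8074362-8074611), which overlaps the first exon of longer transcripts, held the first motif 2 times as its reverse complement, GCGGAAAA from 198 to 191 and GCGGCAAA from 64 to 57 bases before the start.

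Of the 8 H3K9 genes, 3 were lower and 1 higher at 21 d than in subconfluent cells, against 23.5% and 27.3% of all genes. Suv39h1 and Suv39h2 encode the paralogous enzymes that trimethylate H3K9 in pericentric heterochromatin. Suv39h1 (chrX:8061171-8074760, minus strand, in GENCODE vM21 on GRCm38, as are all gene positions here) had RPKM values of 11.1 and 11.2 in the subconfluent replicates, 9.22 and 9.43 in confluent cells, 6.22 and 7.17 at 24 h, 4.67 and 4.63 at 14 d, and 2.85 and 2.89 at 21 d. Both replicates of each stage were below both of the stage before, with no overlap. The log2 fold change at 21 d was -1.84 with an SE of 0.08, a 3.57-fold fall (adjusted p = 4.5e-06). Suv39h2 (chr2:3455815-3475031, minus strand) had 3.47 and 3.41 RPKM in subconfluent cells, 2.80 and 2.79 in confluent cells, 1.90 and 2.17 at 24 h, 1.45 and 1.33 at 14 d, and 0.897 and 1.02 at 21 d. Its stages did not overlap either. It fell by 1.73 on the log2 scale (SE 0.11, adjusted p = 2.2e-05). The pair kept close to the same ratio of RPKM, with Suv39h1 between 2.84 and 3.48 times Suv39h2 in the 10 samples. Suv39h1 shares 767 exonic bases with the antisense gene Gm14820 and Suv39h2 shares 357 with Dclre1c. These neighbours had mean counts of 42 and 183, against 2695 and 791. The sources used here do not say whether strand was used in counting, and without it reads from the shared bases cannot be told apart.

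Setdb2, a less studied H3K9 enzyme, had 2.87 and 2.22 RPKM in subconfluent cells, 2.25 and 2.13 in confluent cells, 1.44 and 1.67 at 24 h, 1.47 and 1.47 at 14 d, and 1.30 and 1.26 at 21 d. Both 21 d samples were below all samples of the earlier stages, although the subconfluent replicates differed widely. It fell by 0.88 on the log2 scale (SE 0.15, adjusted p = 0.0021). Its paralogue Setdb1, which acts with Trim28 at transposon sequences, ran from 5.52 to 11.9 RPKM, and its log2 fold change of -0.45 (SE 0.24, adjusted p = 0.15) did not pass. Ehmt2 and Ehmt1 (G9a and GLP) form the enzyme that dimethylates H3K9 at silenced genes. Ehmt2 was the most abundant member by RPKM at every stage, with a mean of 63.8 ± 1.74 (SD, n = 2) in the subconfluent culture, 69.6 ± 1.43 in the confluent culture and 55.5 ± 1.77 by 21 d. At 21 d that placed it at percentile 86.2 of the genes over 1 RPKM. Its log2 fold change was -0.09 (adjusted p = 0.42), although it was called lower when counts were scaled by library size alone (-0.24) and in both limma fits on log2 RPKM. That of Ehmt1 was -0.20 (adjusted p = 0.40). Prdm2 was the H3K9 member called higher, at 3.66 and 3.47 RPKM in subconfluent cells and 5.31 and 4.70 at 21 d, without overlap (0.60 on the log2 scale, SE 0.21, adjusted p = 0.047). That call was lost under several alternatives, among them DESeq2 size factors and the removal of any 1 subconfluent, confluent, 14 d or 21 d replicate. Prdm16 was at or below 0.155 RPKM in every sample.

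At 21 d against subconfluent cells, 6 of 9 genes for readers of H3K9 methylation or partners of its writers were lower and 1 higher. Their median log2 fold change was -0.56. Over all genes 23.5% were lower and 27.3% higher, with a median of 0.04. Cbx5, which encodes the heterochromatin protein HP1α that binds trimethylated H3K9, had 25.9 and 24.2 RPKM in subconfluent cells and 7.88 and 7.33 at 21 d, a fall of 1.60 on the log2 scale (SE 0.12, adjusted p = 4.5e-05). Of the HUSH complex, which recruits Setdb1, Pphln1 fell by 1.04 (SE 0.10, adjusted p = 0.00014), Mphosph8 fell by 0.56 (SE 0.10, adjusted p = 0.0025) and Tasor rose by 1.03 (SE 0.28, adjusted p = 0.017). At 24 h Tasor had 1.49 RPKM in replicate A and 3.11 in replicate B.

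Of the 6 H3K36 genes, Nsd2 fell, Nsd1 and Setmar rose, and 3 did not pass at 21 d against subconfluent cells. Over all genes 23.5% were lower and 27.3% higher. Nsd2 (chr5:33820725-33897975, plus strand), a dimethylase of H3K36, had 11.8 and 11.5 RPKM in subconfluent cells, 9.93 and 8.78 in confluent cells, 5.99 and 7.36 at 24 h, 4.94 and 4.77 at 14 d, and 3.74 and 3.69 at 21 d. Like Suv39h1, it was lower at each later stage without overlap. It fell by 1.53 on the log2 scale between subconfluent cells and 21 d (SE 0.10, adjusted p = 2.3e-05). Nsd1, its paralogue, had 1.97 and 1.90 RPKM in subconfluent cells, 2.19 and 2.01 in confluent cells, 1.91 and 3.23 at 24 h, 2.94 and 2.56 at 14 d, and 3.42 and 3.28 at 21 d. The 14 d and 21 d samples were above all subconfluent and confluent samples, and the 24 h replicates lay far apart. Nsd1 rose by 0.91 (SE 0.19, adjusted p = 0.0065). Nsd3 did not pass (-0.09, SE 0.17, adjusted p = 0.71). Within the summed RPKM of the 3 Nsd genes, Nsd2 took 62.4% ± 0.133 (SD, n = 2) in subconfluent cells and 32.4% ± 0.107 at 21 d. Nsd1 went from 10.4% ± 0.0775 to 29.2% ± 0.438 and Nsd3 from 27.3% ± 0.210 to 38.4% ± 0.331, so that at 21 d Nsd3 was the most abundant of the 3 per length. The length of Nsd1 in the deposited tables, 12761 bases, is below its 17483 exonic bases in GENCODE vM21, and its share depends on the length used. The ratio of Nsd1 to Nsd2 was 0.167 and 0.166 in the subconfluent replicates and 0.913 and 0.890 at 21 d.

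**Figure D3:**
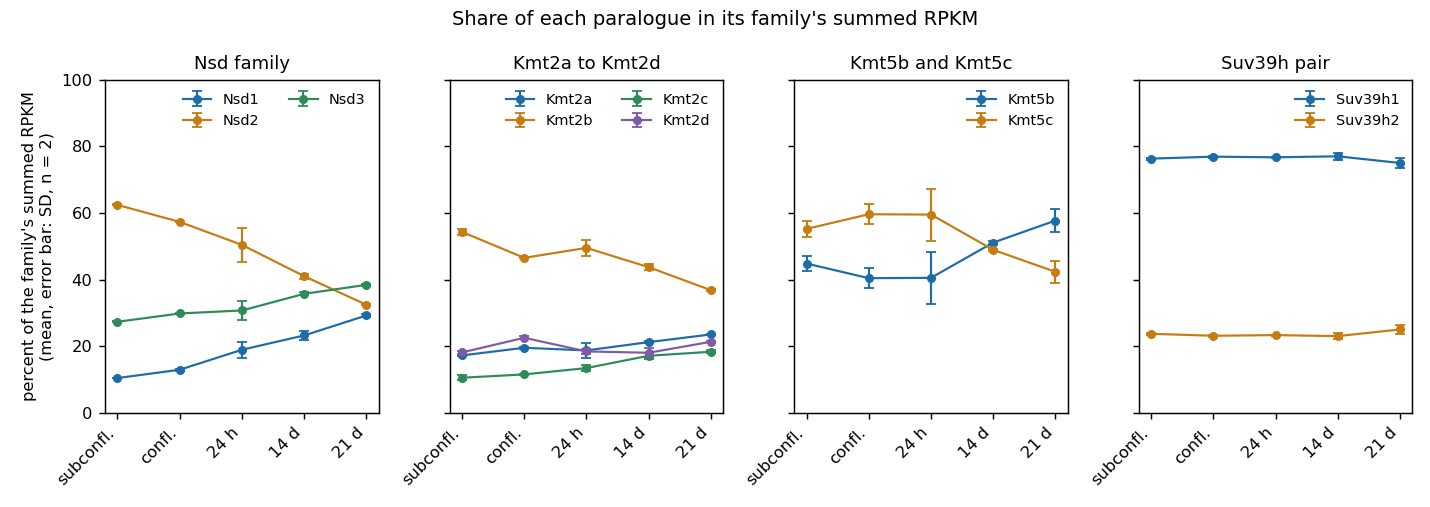
Percent of the summed RPKM of a family (y axis, 0 to 100) taken by each paralogue at the 5 stages (x axis), as mean and SD of 2 replicates. Nsd2 goes from 62.4% to 32.4% while Nsd1 and Nsd3 gain, Kmt2b goes from 54.3% to 36.8%, Kmt5b passes Kmt5c between 24 h and 14 d, and Suv39h1 keeps 74.0% to 77.7% of its pair in the 10 samples.

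Setmar, which encodes a SET domain protein and in the mouse lacks the transposase part that it carries in primates, had the largest rise among members that passed. It lies at chr6:108065045-108077122 (plus strand). It had 1.21 and 1.06 RPKM in subconfluent cells, 1.02 and 1.07 in confluent cells, 2.92 and 2.33 at 24 h, 2.42 and 2.22 at 14 d, and 3.16 and 3.92 at 21 d. Every sample in differentiation medium was above every sample in growth medium. The log2 fold change was 1.75 at 21 d against subconfluent cells (SE 0.20, adjusted p = 0.00032) and 1.43 at 24 h against confluent cells (SE 0.20, adjusted p = 0.011). Its counts were low, between 58 and 553 per library. Setd2, the trimethylase of H3K36 that travels with RNA polymerase II, ran between 7.14 and 7.91 RPKM at 21 d and between 6.73 and 7.48 in subconfluent cells, which overlapped (0.20, SE 0.20, adjusted p = 0.44). Ash1l, a dimethylase that counteracts Polycomb silencing, had 5.62 and 5.06 RPKM in subconfluent cells and 6.86 and 6.75 at 21 d, and did not pass (0.47, SE 0.36, adjusted p = 0.31). Its 24 h values of 2.39 and 6.47 were far apart, and without 24 h replicate A its adjusted p was 0.0034. Ash1l shares 352 exonic bases with Dap3 on the opposite strand, which had more counts on average (6315 against 4992).

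Of the 4 H4K20 genes, Kmt5a was lower and Kmt5b higher at 21 d than in subconfluent cells, against 23.5% and 27.3% of all genes. Kmt5c did not pass and Prdm6 was not tested. Kmt5a (chr5:124439930-124462308, plus strand), which places the single methyl group, had 35.4 and 36 RPKM in subconfluent cells, 31.3 and 34 in confluent cells, 23.6 and 27.6 at 24 h, 18.6 and 17.8 at 14 d, and 18.5 and 18.5 at 21 d. It was lower in both 24 h samples than in all earlier ones and lower again at 14 d, and the 14 d and 21 d samples overlapped. It fell by 0.84 on the log2 scale at 21 d (SE 0.08, adjusted p = 0.00014). Kmt5b (chr19:3767421-3818303, plus strand), which adds the further methyl groups, had 3.64 and 3.57 RPKM in subconfluent cells, 3.74 and 3.41 in confluent cells, 2.94 and 4.71 at 24 h, 5.25 and 5.45 at 14 d, and 6.94 and 6.37 at 21 d. Its 21 d samples were above all others. It rose by 1.0 on the log2 scale (SE 0.17, adjusted p = 0.0024), a ratio of 1.998 and so just under the 2-fold limit. Kmt5c, the paralogue of Kmt5b, stayed between 4.21 and 5.52 RPKM in all samples and did not pass (0.25, SE 0.11, adjusted p = 0.10). Kmt5b was thus below Kmt5c per length in all 6 samples up to 24 h, at 0.538 to 0.866 times its RPKM, and above it in all 4 later ones, at 1.04 to 1.5 times.

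Of 7 genes that work with the H4K20 enzymes, 4 fell and 0 rose at 21 d, against 23.5% and 27.3% of all genes. Dtl, the substrate receptor through which Kmt5a is degraded in S phase, fell by 3.55 on the log2 scale (SE 0.17, adjusted p = 8.3e-06), from 24.7 and 24.4 RPKM to 1.73 and 2.14. Pcna, the replication clamp to which Kmt5a binds, fell by 2.24 (SE 0.11, adjusted p = 1.0e-05). Orc1, a subunit of the origin recognition complex that reads dimethylated H4K20, fell by 3.70 (SE 0.19, adjusted p = 1.1e-05).

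A list of 16 cell cycle genes moved along with these members. At 21 d all 16 were lower than in subconfluent cells, with a median log2 fold change of -3.29, and their summed RPKM went from 1070 in both subconfluent replicates to 92.2 and 120 at 21 d. The sums were 839 and 782 in confluent cells, 528 and 564 at 24 h, and 362 and 350 at 14 d, so they were lower at each later stage, as were Suv39h1, Suv39h2 and Nsd2. Between 14 d and 21 d the list fell further (16 of 16, median -1.93), as did those 3 members, while Smyd5 (-0.11, adjusted p = 0.54) and Kmt5a (-0.05, adjusted p = 0.79) did not pass. The part of cell division in the members' falls was not tested.

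Dot1l, the H3K79 methyltransferase and the member without a SET domain, had 8.41 and 8.38 RPKM in subconfluent cells, 9.20 and 8.56 in confluent cells, 5.09 and 8.71 at 24 h, 6.63 and 6.86 at 14 d, and 4.56 and 4.32 at 21 d. Both 21 d samples were below all others. It fell by 0.80 on the log2 scale (SE 0.19, adjusted p = 0.011). The adjusted p was 0.065 without 21 d replicate B and 3.3e-05 without 24 h replicate A. Of 4 genes for Dot1l partners, Mllt1 was lower at 21 d (-0.86, adjusted p = 0.00083) and Mllt6 higher (0.60, adjusted p = 0.0040). Over all genes 23.5% were lower and 27.3% higher.

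Of the 11 H3K4 genes, 4 were higher and 1 lower at 21 d than in subconfluent cells, against 27.3% and 23.5% of all genes. Kmt2c and Kmt2d encode MLL3 and MLL4, which monomethylate H3K4 at enhancers. Kmt2c (chr5:25271798-25498783, minus strand) had 1.41 and 1.18 RPKM in subconfluent cells, 1.61 and 1.49 in confluent cells, 1.07 and 2.15 at 24 h, 2.54 and 2.16 at 14 d, and 3.07 and 2.76 at 21 d. The 14 d and 21 d samples were above all subconfluent and confluent samples, and replicate A at 24 h was the lowest sample of all. Kmt2c rose by 1.28 on the log2 scale (SE 0.27, adjusted p = 0.0055). Kmt2d rose by 0.71 (SE 0.19, adjusted p = 0.017) and Kmt2a, which encodes MLL1 and works at developmental promoters, by 0.93 (SE 0.27, adjusted p = 0.024). Kmt2d had 2.35 and 2.12 RPKM in subconfluent cells and 3.49 and 3.28 at 21 d, and Kmt2a 2.19 and 2.07 against 3.88 and 3.59, without overlap in either. Both calls were lost when either subconfluent or either 21 d replicate was left out, when counts were scaled by library size alone, and in limma on log2 RPKM. Kmt2b (MLL2) did not pass (-0.08, SE 0.19, adjusted p = 0.74) and went from 54.3% ± 0.930 to 36.8% ± 0.329 of the summed RPKM of Kmt2a to Kmt2d. These genes are long, at 9524 to 20232 bases in the deposited tables. Genes of 10 kb and over had a median log2 fold change of 0.05 in the same comparison.

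Setd1a and Setd1b encode the enzymes that trimethylate H3K4 at most active promoters. Setd1a had 7.94 and 7.92 RPKM in subconfluent cells and 4.49 and 5.04 at 21 d, without overlap, but its 24 h replicates were at 0.742 and 6.23 and its log2 fold change of -0.62 had an SE of 0.73 (adjusted p = 0.52). Without 24 h replicate A the SE was 0.13 and the adjusted p 0.0059. Its length in the deposited tables, 2710 bases, is well below the 6795 exonic bases of GENCODE vM21, and 3523 exonic bases are shared with Gm49388 on the same strand, so its RPKM cannot be set beside that of Setd1b. Setd1b ran from 1.76 to 5.45 RPKM and did not pass (0.21, adjusted p = 0.70). Setd7, a monomethylase of H3K4 and of many other proteins, had 9.02 and 8.89 RPKM in subconfluent cells and 5.92 and 5.63 at 21 d (-0.52, SE 0.23, adjusted p = 0.095), and without 24 h replicate A its adjusted p was 0.0023. Kmt2e, whose SET domain is thought to be inactive, did not pass (0.34, adjusted p = 0.22).

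Smyd2, which methylates H3K4 and several other proteins, was the H3K4 member called lower. It had 53.6 and 56.0 RPKM in subconfluent cells, 52.8 and 52.8 in confluent cells, 62.7 and 53.9 at 24 h, 39.1 and 38.5 at 14 d, and 33.4 and 31.6 at 21 d. By RPKM the largest fall between neighbouring stages lay between 24 h and 14 d, where the libraries also change index pair. All 4 later samples were below all 6 earlier ones. In the fit Smyd2 changed by -0.47 on the log2 scale at 14 d against 24 h (adjusted p = 0.030). It did not pass at 24 h against confluent cells (0.24, adjusted p = 0.25) or at 14 d against confluent cells (-0.23, adjusted p = 0.16). Nor did it pass at 21 d against 14 d (-0.33, adjusted p = 0.12). Smyd2 fell by 0.64 on the log2 scale at 21 d against subconfluent cells (SE 0.11, adjusted p = 0.0025). Smyd3 had 1.41 and 1.45 RPKM in subconfluent cells, 1.26 and 1.34 in confluent cells, 1.49 and 1.45 at 24 h, 1.48 and 1.61 at 14 d, and 1.77 and 1.60 at 21 d. Its subconfluent and 21 d samples did not overlap. The rise of 0.35 (SE 0.11, adjusted p = 0.036) was lost under 15 of the alternatives tried. Smyd1, a gene of heart and skeletal muscle, was at or below 0.0495 RPKM in every sample.

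Most H3K4 enzymes work in COMPASS complexes with shared subunits. Of 13 genes of these complexes, 6 were lower and 0 higher at 21 d, with a median log2 fold change of -0.58. Over all genes 23.5% were lower and 27.3% higher, with a median of 0.04. Among the core subunits Ash2l fell by 0.90 (SE 0.09, adjusted p = 0.00015) and Wdr5 by 0.66 (SE 0.08, adjusted p = 0.00041), whereas Rbbp5 (-0.18, adjusted p = 0.41) and Dpy30 (-0.58, adjusted p = 0.051) did not pass. More than 2-fold falls were seen for Paxip1 of the Kmt2c and Kmt2d complexes (-1.20, SE 0.15, adjusted p = 0.00042) and Psip1, which ties Kmt2a to chromatin (-1.03, SE 0.09, adjusted p = 7.3e-05). Psip1 had 21.3 and 21.9 RPKM in subconfluent cells and 10.1 and 9.44 at 21 d. Kdm6a, a demethylase in the Kmt2c and Kmt2d complexes, did not pass (0.19, adjusted p = 0.58).

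Among the 4 SET domain proteins without an agreed histone site, Smyd5 (chr6:85431989-85446435, plus strand) fell. It had 30.9 and 32.7 RPKM in subconfluent cells, 30.2 and 31.8 in confluent cells, 19.0 and 22.2 at 24 h, 15.0 and 14.4 at 14 d, and 15.0 and 13.8 at 21 d. The subconfluent and confluent samples overlapped, the 24 h samples lay below them, and the 14 d and 21 d samples lay lower still and overlapped. The log2 fold change was -1.03 at 21 d against subconfluent cells (SE 0.08, adjusted p = 6.2e-05) and -0.50 at 24 h against confluent cells (SE 0.08, adjusted p = 0.018). Smyd4 passed the F test over the 5 stages (adjusted p = 0.028). It had 2.26 and 1.88 RPKM in subconfluent cells, 1.79 and 1.61 in confluent cells, 1.54 and 1.79 at 24 h, 2.30 and 2.07 at 14 d, and 2.18 and 2.18 at 21 d. The confluent and 24 h samples were the 4 lowest. At 14 d Smyd4 was above confluent cells by 0.58 on the log2 scale (SE 0.14, adjusted p = 0.016). Both calls were lost with library size alone, without a filter and in both limma fits. Setd3, an actin histidine methyltransferase, and Setd5 did not pass at 21 d (-0.13, adjusted p = 0.23 and -0.30, adjusted p = 0.35). Setd3 was called lower with library size alone (-0.29) and in both limma fits.

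The members were also compared between neighbouring stages. Between subconfluent and confluent cells 0 of 33 passed in edgeR, against 3.28% of all genes, with 3 at an unadjusted p under 0.05 and 3 called by DESeq2. Without 24 h replicate A that count was 4 against 14.5% of all genes, with Suv39h1 (-0.28) and Nsd2 (-0.34) lower and Kmt2a (0.28) and Kmt2d (0.41) higher. Between confluent cells and 24 h, 3 members passed, 1 higher and 2 lower, against 5.15% of all genes, 3.59% higher and 1.57% lower. These were Setmar, which rose, and Smyd5 and Suv39h1 (-0.39, SE 0.07, adjusted p = 0.028), which fell. The count was 5 without 24 h replicate A against 10.1% of all genes, 23 without replicate B against 39.9%, and 0 in a fit of these 4 samples alone or when either confluent replicate was left out.

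At 14 d against confluent cells, 11 of 33 members passed, 6 higher and 5 lower, against 32.1% of all genes, 16.9% higher and 15.3% lower. The higher ones were Setmar, Prdm2, Nsd1, Kmt5b, Smyd3 and Smyd4, and the lower ones Suv39h1, Suv39h2, Nsd2, Kmt5a and Smyd5. Setmar was the 1 member of these 11 that moved more than 2-fold, against 13.0% of all genes (1.37 on the log2 scale, SE 0.20, adjusted p = 0.0023). Suv39h1 and Suv39h2 both stood at -0.79 (adjusted p = 0.00036 and 0.0017). The count was 18 without 24 h replicate A, where the background was 48.5%, 21 without replicate B, where it was 48.8%, and 6 without either confluent replicate or without 14 d replicate B, 7 without 14 d replicate A. Scaled by library size alone, where the median of all genes was -0.20, 1 member was higher and 9 were lower, against 11.4% and 23.9% of all genes. Between 24 h and 14 d, where the index pair also changes, 7 members passed against 17.3% of all genes. Kmt5b and Smyd4 were higher, against 9.08% of all genes, and Smyd2, Suv39h1, Suv39h2, Kmt5a and Smyd5 lower, against 8.21%. All of these calls were lost when either 14 d replicate was left out, and most of them when either 21 d replicate was. A fit of these 4 samples alone called 0 members and 1.61% of all genes.

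From 14 d to 21 d, where all libraries carry the same index pair, 3 members passed against 9.72% of all genes, and all 3 fell, against 5.95% lower among all genes. They were Suv39h1 (-0.77, SE 0.07, adjusted p = 0.0010), Suv39h2 (-0.61, SE 0.11, adjusted p = 0.013) and Nsd2 (-0.46, SE 0.10, adjusted p = 0.026). Their 14 d and 21 d samples did not overlap, which adds nothing to the test because it rests on the same samples. Without 24 h replicate A there were 10 calls, which added falls of Dot1l (-0.68), Smyd2 (-0.33) and Setdb1 (-0.31) and rises of Setmar (0.54), Kmt2d (0.38), Kmt2a (0.28) and Kmt5b (0.24), and the background rose to 23.9%. Without 24 h replicate B there were also 10, against 24.1% of all genes. The count was 1 without either 14 d replicate or without 21 d replicate A.

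The replicates of the 24 h stage differed more than those of the other stages. Of 31 members with a mean of at least 1 RPKM, 27 were lower in replicate A than in replicate B at 24 h, with a median ratio of 0.599, against 6 to 10 at the other stages. The SD of the members' log2 ratio between replicates was 0.653 at 24 h and 0.106 to 0.118 elsewhere. Setd1a differed most, with 171 counts in replicate A and 1334 in replicate B, followed by Setd1b, Ash1l and Kmt2a at log2 ratios of -1.58, -1.44 and -1.09. Suv39h1, Suv39h2, Kmt5a, Smyd5 and Setdb2 differed by 0.19 to 0.22 on that scale. Over all genes the median log2 ratio of A to B at 24 h was 0.18 for genes under 3 kb and -0.60 for genes of 10 kb and over. The part of gene length in the members' differences at 24 h was not tested.

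**Figure D4:**
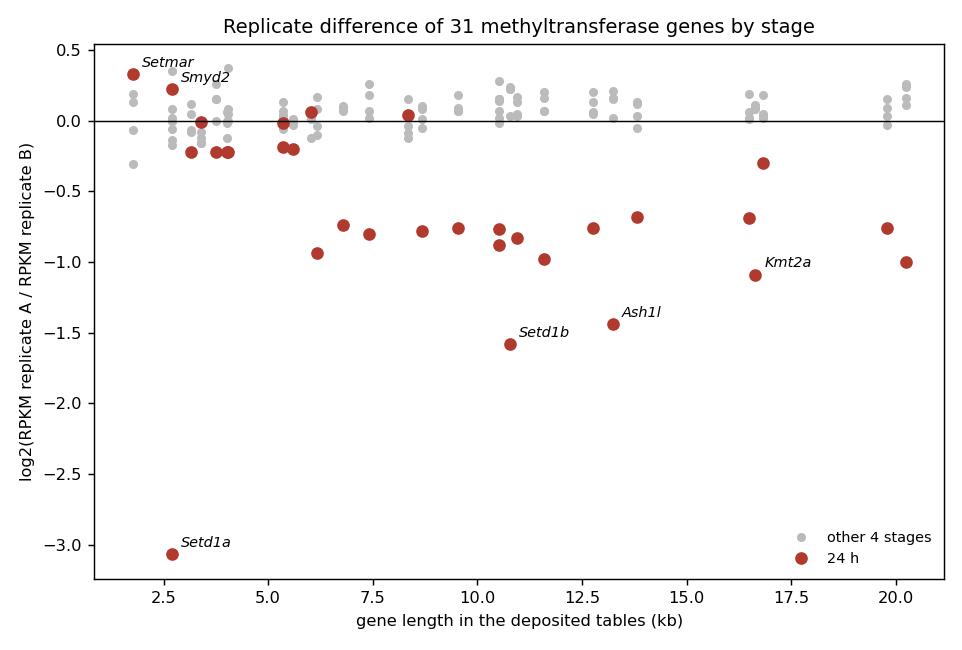
Log2 ratio of RPKM in replicate A to replicate B (y axis) against gene length in kb (x axis) for the 31 members with a mean of at least 1 RPKM. Red points are the 24 h stage and grey points the other 4 stages. At 24 h 27 of 31 members lie below 0, down to -3.07 for Setd1a, while grey points stay near 0.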

How the data were processed

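RNA-seq of MC3T3-E1 cells at 5 stages with 2 replicates each was analysed from 2 deposited tables. The count table holds the authors' whole-number read counts per gene without normalization. The RPKM table holds the authors' counts scaled to gene length and to the size of the library. The submitters' processing notes name FastQC, TopHat2 2.0.9, R 3.0.1 and the build mm10. The counting tool, its annotation and its strand setting are not given in the sources used here. For the libraries of 14 d replicate A and 21 d replicate B, run in 2 lanes, the merged column was used. It differs from the sum of the lane columns for 13526 and 13582 genes, for a reason not given in the sources used here. Identifiers were matched to symbols in GENCODE vM21 (39547 of 40620), and promoter sequences are from RefSeq on GRCm38.p6.

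Counts were tested with edgeR 4.0.16 in R 4.3.3, by TMM and filterByExpr over the 5 stages, in one quasi-likelihood model of all 10 samples with 5 groups. P-values were adjusted by Benjamini-Hochberg over the 20808 genes tested, with a threshold of 0.05. The SE was obtained from the fitted log2 value and its F statistic. Levels and shares within families are RPKM, without a test, and RPKM is not scaled by TMM, so ratios of RPKM and fitted fold changes differ somewhat. Total counts of 44736156 to 162939333 per library give small counting errors for all but low genes, and the precision of each test also rests on the spread of 2 replicates per stage.

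The members and the lists of partners and markers were chosen with earlier results of these data known. Members with an adjusted p under 0.05 in the F test, or in 21 d against subconfluent cells with more than 2-fold change, were given in every sample, and the others by range or selected values. Alternatives were DESeq2 1.42.0, DESeq2 size factors, library size alone, a minimum of 10 counts in all samples, no filter, limma 3.58.1 on log2(RPKM + 1) and log2(RPKM + 0.1), the sum of lanes, fits of only the 2 stages in question or without the 24 h stage, a block for the replicate letter, and each replicate left out. Removal of a trend with gene length (lowess span 0.3) was added after the data were seen. The pipeline was tested on simulated data.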

Additional observations from a re-analysis of the deposited data

How the results depend on the processing

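Of the members called in 21 d against subconfluent cells and given in every sample, none changed direction under any alternative checked for it. Fits of only the 2 stages in question were not checked for direction. Kmt2a, Kmt2d and Prdm2, which were also called but lie outside this set, lost their calls under several alternatives. Library size alone and both limma fits were among them. Within the set, calls were lost for Smyd3 under 15 alternatives and for Dot1l without 21 d replicate B. With each replicate left out in turn, where the remaining replicate of a stage is assumed to vary like the other stages, they ranged from 9 to 30 for the F test over 5 stages, 11 to 24 for 21 d against subconfluent, 6 to 21 for 14 d against confluent, 0 to 4 for confluent against subconfluent, 0 to 23 for 24 h against confluent, 0 to 27 for 14 d against 24 h and 1 to 10 for 21 d against 14 d. The share of all genes called ranged, in the same order, from 33.2% to 72.9%, 34.4% to 61.9%, 16.3% to 48.8%, 0.557% to 14.6%, 0.843% to 39.9%, 3.85% to 46.6% and 3.41% to 24.1%. With no 24 h samples the counts were 25 for the F test, 20 for 14 d against confluent, 4 for confluent against subconfluent and 11 for 21 d against 14 d, with 70.6%, 52.7%, 16.5% and 26.6% of all genes called. With only the 2 groups compared they were 17 for 14 d against confluent and 11 for 21 d against 14 d. The shares of all genes were 48.0% and 30.5%. For 24 h against confluent and 14 d against 24 h the counts were 0, with 0.00% and 1.61% of all genes called. At more than 2-fold change they were 7, 6, 1, 1, 0 and 0 for the F test, 21 d against subconfluent, 14 d against confluent, 24 h against confluent, 14 d against 24 h and 21 d against 14 d, with 30.2%, 27.6%, 13.0%, 2.13%, 5.98% and 3.97% of all genes called. DESeq2 called 3 in confluent against subconfluent and 6 in 24 h against confluent, with 9.83% and 15.5% of the genes it tested. With the length trend removed there were 1 in confluent against subconfluent, 5 in 24 h against confluent and 5 in 21 d against 14 d. The shares of all genes were then 5.94%, 9.24% and 14.7%. For 21 d against 14 d, library size alone, no filter and both limma fits gave 1 each, against 5.15% to 11.4% of all genes. Apart from fewer samples or a stricter threshold, the cause was not tested. With the replicate letter as a replicate block, 14 d against 24 h had 2 calls and 21 d against subconfluent 14. All genes then passed at 12.5% and 47.3%. The correlation of A minus B between stages ran from -0.33 to 0.32. It cannot show whether samples of the same letter shared a culture or batch. Shares within families depend on length, and by counts Kmt5b took 76.7% of the pair with Kmt5c in subconfluent cells and 84.7% at 21 d.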
